A study of Mus musculus with 12 samples.

Results

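The mouse genes for metallothioneins and for the uptake, storage and release of iron were followed on Affymetrix mouse genome arrays, which measure each gene by 1 or more sets of short probes. The members were 10 genes: Mt1, Mt2, Hamp, Tfrc, Slc40a1, Fth1, Ftl1, Slc39a14, Trf and Slc11a2. A probe set was taken when the array annotation gave it to 1 of these genes and to no other. This left 19 of the 24504 single-gene probe sets of the series, for 8 of the 10 genes. The 3 probe sets of Ftl1 and the 1 of Trf are shared with another gene, so no value is given for ferritin light chain or transferrin. Male FVB/N mice had been kept for 6 weeks, from weaning at 3 weeks of age, on a Se-deficient torula yeast diet with 0 ppm (0 Se) or 0.1 ppm (0.1 Se) selenium added as sodium selenite. Liver and lung RNA gave 4 groups, 0 Se liver, 0.1 Se liver, 0 Se lung and 0.1 Se lung, of 3 arrays each (12 in all), and the labels call the arrays of a group biological replicates. The methods describe both diets as Se-deficient with this selenium added, and name no other difference in composition. The question here was how these genes differed between the diets in each tissue, and between liver and lung.

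Metallothioneins are small cysteine-rich proteins that bind zinc, copper and cadmium, and their genes are known to be induced by metals through the factor Mtf1, by glucocorticoids and by inflammatory signals. Hepcidin, made from Hamp mainly by hepatocytes, is the hormone that lowers iron release by binding ferroportin (Slc40a1), the exporter of iron from macrophages, hepatocytes and enterocytes. Iron enters cells through the transferrin receptor (Tfrc) as transferrin-bound iron, or unbound through Slc39a14 (ZIP14) and Slc11a2 (DMT1), and is stored in ferritin, of which Fth1 is the heavy chain.

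Short stretches of the Mt1 and Mt2 promoters show the element for which these genes are best known. They come from RefSeq windows on build GRCm38.p6, which held 6 of the 10 genes, and the 250 bases before each annotated start were searched on both strands. The metal response element core, to which Mtf1 binds, was searched as TGCACNC or TGCGCNC. It had 1 match before Mt1 and 3 before Mt2, while 21.4% of the 32851 promoter windows held at least 1 and 5.17% at least 2. Of the other members with a window, Tfrc had 2 matches in 1 of its 2 windows and 0 in the other, and Hamp, Fth1 and Ftl1 had 0, so the element is not particular to the metallothioneins here. These counts depend on where each start is annotated. The Mt1 match lay 23 to 17 bases before its start, and bases after a start were not searched, so 1 match need not be all that Mt1 has. Mt1 and Mt2 lie on the plus strand of chromosome 8. The stretches are chr8:94179054-94179083 for Mt1, and chr8:94172383-94172412, chr8:94172478-94172507 and chr8:94172556-94172585 for Mt2, each of 30 bases with the match in capitals.
Mt1: gcggtcccgctgTGCACACtggcgctccag
Mt2 a: cagcatcgcctcTGCACCCggcccctcggg
Mt2 b: tcgcagacccttTGCGCTCagctcctttgc
Mt2 c, match on the other strand: tggggggagggcGTGTGCAggctctgtccc
A match is a run of letters, and binding was not measured here.

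Levels are log2 signals as deposited, with 1 unit standing for a 2-fold change, and the deposited table leaves low or absent signals blank. Each liver array listed 17235 to 17923 probe sets and each lung array 22197 to 22718. The tissue labels were checked against their markers. Hepatocyte markers were listed on the 6 liver arrays for 13 of 13 genes, and 10 of these 13 were blank on all 6 lung arrays. Lung epithelial markers were listed on the 6 lung arrays for 10 of 10 genes, and 8 of the 10 were blank on all 6 liver arrays. Of 9 cardiac muscle markers, 9 were blank on every liver array, but 7 were listed on each lung array, with a mean over the 7 that ran from 8.81 to 12.05 in 0 Se lung and from 9.33 to 11.23 in 0.1 Se lung. Of the 4 pancreas markers with a probe set, 4 were blank on every lung array and none was listed on all 6 liver arrays.

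No member differed between the diets past the test in either tissue. In liver, 0 of 14 member probe sets passed limma's adjusted p of 0.05, against 2 of 16575 (0.0121%) over all probe sets. In lung, 0 of 11 passed, against 20 of 21655 (0.0924%). At an unadjusted p under 0.05 there was 1 member probe set in liver (Slc11a2), where 6.65% of all probe sets reached that level, and there were 3 in lung (Mt1, Mt2 and Slc40a1), where 7.67% did. The methods' t-test gave 2 of 14 in liver at its unadjusted threshold, which 985 of 16575 probe sets reached. In lung it gave 0 of 11, against 1412 of 21655. After adjustment it gave 0 in both tissues, among the members and over all probe sets. Signs leaned to opposite sides: 12 of the 14 differences lay above 0 in liver (median 0.17, all probe sets -0.0047) and 8 of the 11 below 0 in lung (median -0.11, all probe sets -0.0077). In liver 5 genes and in lung 3 genes contribute more than 1 of these probe sets. The diets did not overlap for 1 of the 12 member probe sets listed on all 6 liver arrays (12.2% over all such probe sets), and for 2 of 10 in lung (12.9%). Both shares stand on so few probe sets that they cannot be told from the background.

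**Figure D1:**
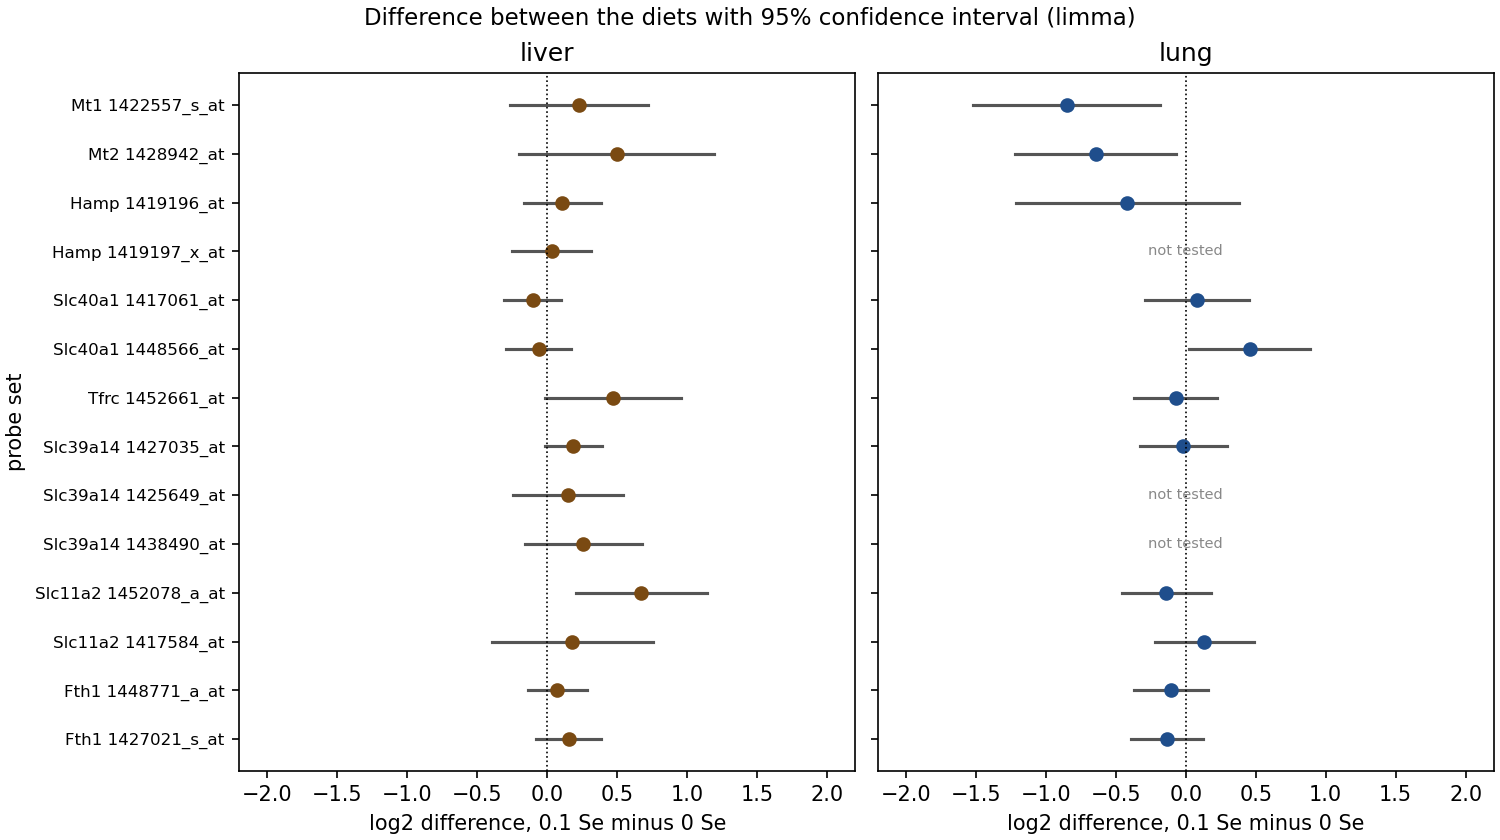
Log2 difference between the diets (0.1 Se minus 0 Se, horizontal axis) for each member probe set with at least 2 values per diet, in liver and in lung. Points are limma estimates and bars 95% confidence intervals, and in lung Mt1 (-0.85) and Mt2 (-0.64) lie furthest below 0.

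The metallothioneins gave the largest differences of the members in lung. Mt1 (probe set 1422557_s_at) read 10.74, 10.79 and 11.28 on the 3 arrays of 0 Se lung and 10.88, 9.38 and 10.004 on those of 0.1 Se lung. Only replicate 1 of 0.1 Se lung reached the range of 0 Se lung, and the other 2 arrays lay below it. The means were 10.94 ± 0.30 (SD, n = 3) and 10.09 ± 0.76 (n = 3), a difference of -0.85 ± 0.30 (SE, 95% confidence interval -1.52 to -0.18), or 1.80-fold higher in 0 Se lung (limma adjusted p = 0.519). Mt2 (1428942_at) read 10.002, 9.69 and 10.49 in 0 Se lung and 9.96, 8.86 and 9.43 in 0.1 Se lung. Replicate 1 was again the array of 0.1 Se lung that overlapped with 0 Se lung. Its difference was -0.64 ± 0.26 (95% confidence interval -1.22 to -0.07, adjusted p = 0.594). Without replicate 1 of 0.1 Se lung, the Mt1 difference was -1.25 and passed the test (adjusted p = 0.0366), when 75 probe sets in all passed. Without replicate 2 of that group it was -0.49, when 0 passed, and over all 15 alternatives the adjusted p ran from 0.0366 to 0.80.

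Values of other cell types stand beside this lung result. The 7 cardiac muscle markers tested in lung all had differences below 0, with a median of -0.62 and 0 past the test, and their array means overlapped between the diets. Of the 10 lung epithelial markers, 7 lay below 0 (median -0.19, 0 past the test), and the mean over the 10 ran from 13.68 to 13.95 on 0 Se lung arrays and from 13.47 to 13.65 on 0.1 Se lung arrays, without overlap. Other lists lay on the other side in lung, with 8 of 9 macrophage markers above 0 (median 0.26) and 2 of 3 erythroid markers (median 0.16). On these lists too, 0 passed the test. The 1 hepatocyte marker tested in lung lay below 0 (-0.85). In whole tissue, a change in the cells of a type and in RNA per cell cannot be told apart. The part of these markers in the metallothionein difference was not tested.

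In liver, the metallothionein differences lay on the other side of 0 and within the spread of the arrays. Mt1 read 12.08, 11.20 and 12.10 in 0 Se liver and 12.23, 11.74 and 12.09 in 0.1 Se liver. Replicate 2 of 0 Se liver stood well below the other 5 liver arrays, and without it the difference turned from 0.23 ± 0.22 (95% confidence interval -0.26 to 0.72, adjusted p = 0.885) to -0.07. Mt2 read 10.17, 9.79 and 10.81 in 0 Se liver and 11.06, 11.18 and 10.01 in 0.1 Se liver. Replicates 1 and 2 of 0.1 Se liver lay above all arrays of 0 Se liver, while replicate 3 lay among them, and the difference was 0.49 ± 0.31 (adjusted p = 0.834). The test of whether the diet effect differed between the tissues, lung minus liver, gave -1.08 ± 0.44 for Mt1 and -1.14 ± 0.47 for Mt2, both with an adjusted p of 0.76. In that test 0 of 11 member probe sets passed, as did 0 of 15112 over the series (0%), and 4 members (Mt1, Mt2, Slc40a1 and Slc11a2) were under 0.05 before adjustment, where 6.16% of all probe sets were. The second probe set of Mt1 (1451612_at) was listed on 3 of the 12 arrays, 1 each of 0 Se liver (7.58), 0.1 Se liver (7.23) and 0 Se lung (7.69), and could not be tested.

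**Figure D2:**
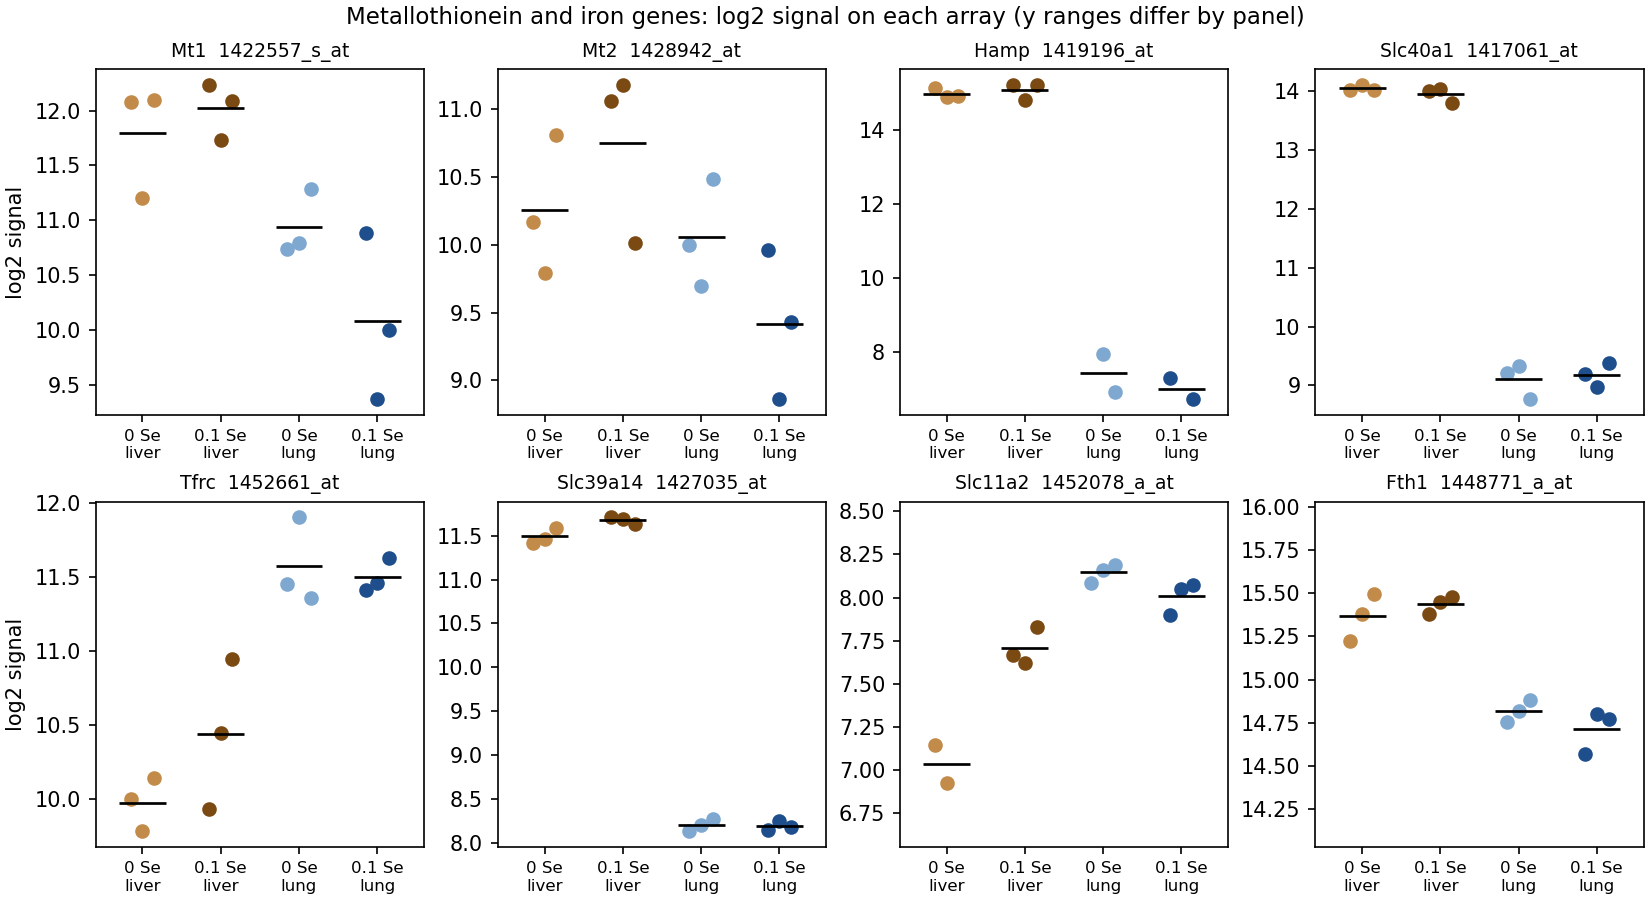
Log2 signal (vertical axis, range set per panel) of the leading probe set of each of the 8 genes on every array, by group, with bars at the group means. The hepcidin, ferroportin and Slc39a14 panels separate liver from lung by several log2 units, while the diets overlap within a tissue in most panels.

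Mt1 and Mt2 varied together from array to array in lung more closely than in liver. With the mean of its own group taken from each array, the deviations of both genes gave a Pearson r of 0.94 over the 6 lung arrays and 0.33 over the 6 liver arrays, and 0.63 over all 12. Replicate 1 of 0.1 Se lung deviated by 0.80 for Mt1 and 0.54 for Mt2, and replicate 2 by -0.71 and -0.55. In liver, replicate 3 of 0.1 Se liver had Mt2 at -0.74 and Mt1 at 0.07, so that array held the metallothioneins apart. Replicate 2 of 0.1 Se liver (Mt1 -0.28, Mt2 0.43) and replicate 1 of 0 Se liver (0.29, -0.09) also had them on opposite sides. On the remaining liver arrays both genes lay on the same side of their group means. Points share the array and its scaling, and the correlations are given as a description. Over the 12 arrays, the 5 genes with deviations most like those of Mt1 among 7574 ranked were Pim2 (r = 0.93), Pgap2 (0.87), Cpsf1 (0.86), Mtap (0.85) and Ncoa5 (0.84), and Mt2 ranked at place 193.

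**Figure D3:**
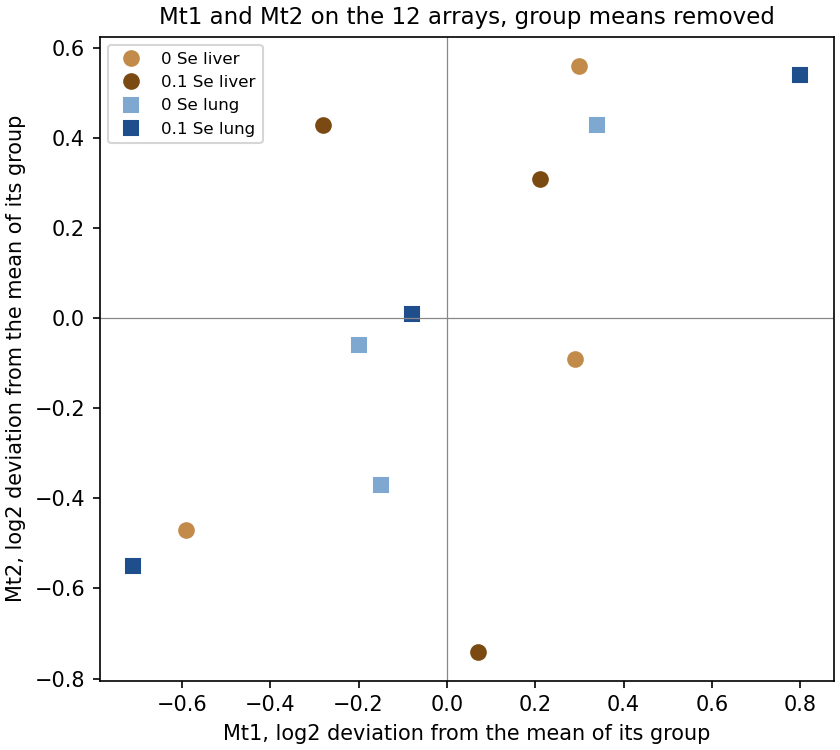
Deviation of Mt1 (horizontal axis) and of Mt2 (vertical axis) from the mean of the array's own group, in log2 units, for the 12 arrays. The 6 lung arrays (squares) run from low in both genes to high in both, and 1 array of 0.1 Se liver has a low Mt2 (-0.74) beside an Mt1 near its group mean.

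Hepcidin gave a bright signal in liver with either diet. Hamp (1419196_at) read 15.14, 14.90 and 14.93 in 0 Se liver and 15.23, 14.83 and 15.23 in 0.1 Se liver, where the highest value of the whole table was 16.4. The diets overlapped, with a difference of 0.11 ± 0.12 (95% confidence interval -0.17 to 0.38, adjusted p = 0.906). The second probe set (1419197_x_at) gave 0.03 ± 0.13, and its sign turned under 5 of 15 alternatives. In lung, Hamp was listed on 4 of 6 arrays, at 7.93 and 6.89 in 0 Se lung and 7.28 and 6.72 in 0.1 Se lung, close to the lowest value of the table (6.64). Its copy Hamp2 had values from 12.92 to 13.88 in liver and was blank on all 6 lung arrays, and signal shared between both copies cannot be divided here, least of all on the _x_at probe set, whose probes can bind related transcripts.

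Ferroportin, the target of hepcidin, was measured by a pair of probe sets that gave like differences between the tissues. In liver, Slc40a1 (1417061_at) read 14.03, 14.10 and 14.02 with 0 Se and 14.00, 14.04 and 13.80 with 0.1 Se, a difference of -0.10 ± 0.09 (adjusted p = 0.875). The diets overlapped, and replicate 3 of 0.1 Se liver was the lowest array. The second probe set (1448566_at) gave -0.06 ± 0.11 there. In lung the probe sets differed: 1417061_at gave 0.08 ± 0.17 with overlapping diets, while 1448566_at read 7.36, 7.07 and 6.67 in 0 Se lung and 7.61, 7.44 and 7.42 in 0.1 Se lung. Its diets did not overlap, with a difference of 0.46 ± 0.19 (95% confidence interval 0.025 to 0.89, adjusted p = 0.621), at signals near the bottom of the table.

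Among the importers, the largest diet differences were in liver. Tfrc (1452661_at) read 9.9998, 9.79 and 10.14 in 0 Se liver and 9.94, 10.45 and 10.94 in 0.1 Se liver. Replicates 2 and 3 of 0.1 Se liver lay above 0 Se liver and replicate 1 lay within it, for a difference of 0.47 ± 0.22 (95% confidence interval -0.02 to 0.95, adjusted p = 0.761). In lung the difference was -0.07 ± 0.13, and the sign turned without replicate 2 of 0 Se lung (0.09). The other Tfrc probe set (1422966_a_at) was listed on 4 of 12 arrays.

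Slc11a2 (1452078_a_at) had the smallest p of the members in liver. It read 7.14 and 6.92 in 0 Se liver, with replicate 3 blank, and 7.67, 7.62 and 7.83 in 0.1 Se liver. The listed arrays did not overlap, and the difference was 0.67 ± 0.21 (n = 2 and 3, 95% confidence interval 0.20 to 1.14, adjusted p = 0.613). In lung it was -0.14 ± 0.14, with diets that did not overlap, and the difference between the tissues was -0.81 ± 0.22 (adjusted p = 0.61). The second probe set (1417584_at) gave 0.18 ± 0.25 in liver (n = 2 and 2) and 0.13 ± 0.16 in lung. Another (1426441_at) was listed on 1 array of 0 Se liver, at 7.43, and on 3 of 0.1 Se liver, at 7.83, 7.79 and 8.38, too few to test. The last (1441709_at) was listed on 3 lung arrays only. All 4 probe sets were dim, with a highest value of 8.38.

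Slc39a14, an importer of unbound iron, zinc and manganese, had differences on the same side of 0 for each of its 3 tested probe sets in liver. The leading one (1427035_at) read 11.42, 11.46 and 11.59 in 0 Se liver and 11.71, 11.69 and 11.63 in 0.1 Se liver. The diets did not overlap, but the gap between them was small, and the difference was 0.19 ± 0.09 (1.14-fold, 95% confidence interval -0.02 to 0.39, adjusted p = 0.772). The others gave 0.26 ± 0.19 (1438490_at) and 0.15 ± 0.18 (1425649_at), with overlap. In lung the leading probe set gave -0.02 ± 0.14. The fourth probe set (1457770_at) was listed on 1 array.

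Ferritin heavy chain was bright and even in both tissues. Fth1 (1448771_a_at) read 15.23, 15.38 and 15.50 in 0 Se liver and 15.38, 15.45 and 15.48 in 0.1 Se liver, with 0.1 Se liver inside the range of 0 Se liver. The difference was 0.07 ± 0.10 (adjusted p = 0.924), and 0.15 ± 0.11 for the other probe set (1427021_s_at). In lung the values were 14.76, 14.82 and 14.88 in 0 Se lung and 14.57, 14.80 and 14.77 in 0.1 Se lung, overlapping between the diets. These gave -0.11 ± 0.12 (95% confidence interval -0.37 to 0.16) and, for the other probe set, -0.14 ± 0.12.

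Liver and lung were then compared. Over both diets, 10 of 11 member probe sets passed the test of liver against lung, but so did 12326 of 15112 over the series (81.6%), so the count itself is near the background. Of the members, 8 were higher in liver (33.9% of all probe sets) and 2 lower (47.7%). The median of all probe sets lay at -0.18 (log2, liver minus lung) as deposited, at -0.45 after quantile normalization and at 0.02 after centring each array on its median, so each tissue difference has to be read against these shifts. With quantile normalization 3957 of the calls were higher and 8692 lower in liver, against 5122 and 7204 as deposited and 6199 and 6005 after centring.

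**Figure D4:**
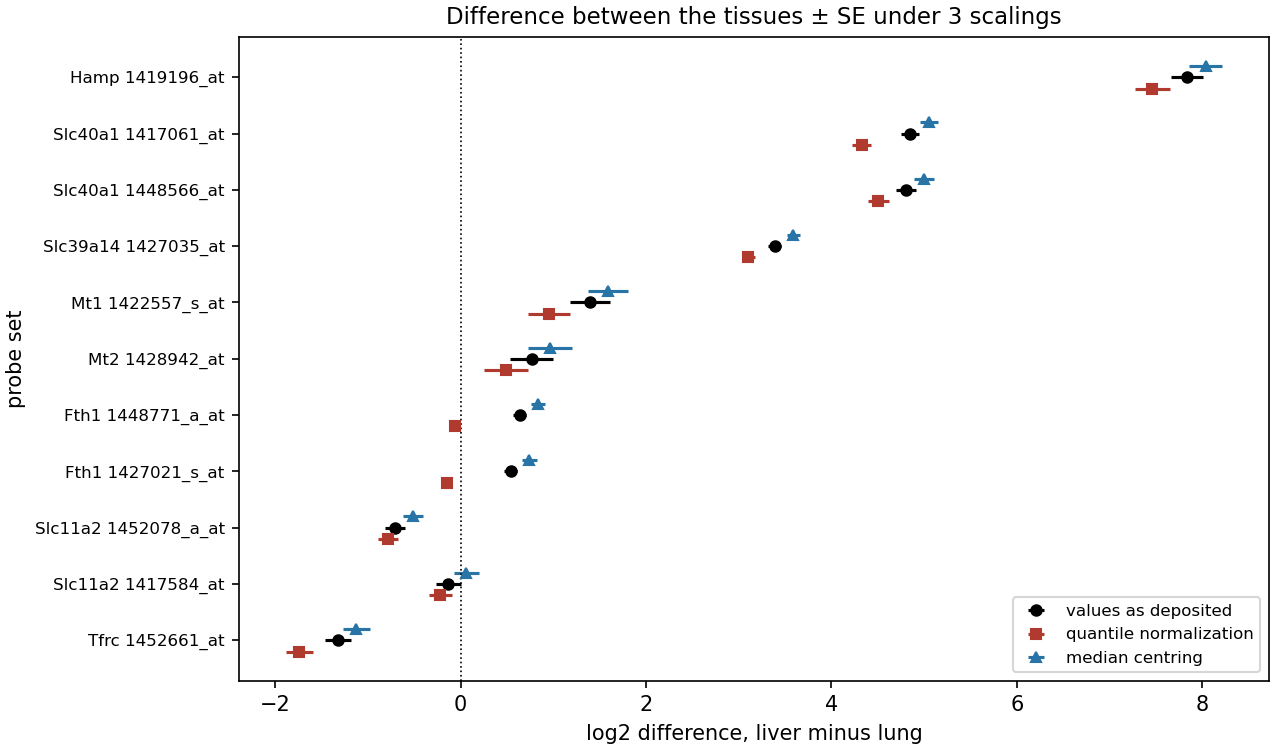
Log2 difference between liver and lung (horizontal axis) for the 11 member probe sets tested, with SE bars, for the values as deposited and for 2 other scalings. Hamp, Slc40a1 and Slc39a14 lie several units above 0 under each of the 3, while the points of Fth1 cross 0 under quantile normalization.

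The hepcidin and ferroportin genes and Slc39a14 were much higher in liver. Hamp was higher by 7.84 ± 0.18 over the 4 lung arrays that listed it (adjusted p = 7.9e-14), and by 8.03 ± 0.21 with its 2 blanks at the lowest value of the table. Its lung values lay near that lowest value, so the size of the difference is uncertain and no fold is given. Slc40a1 was higher by 4.85 ± 0.10 (28.9-fold, adjusted p = 1.1e-15) and by 4.80 ± 0.11 on its second probe set (27.9-fold). Slc39a14 was higher by 3.39 ± 0.07 (10.5-fold, adjusted p = 1.5e-15), and its 1425649_at and 1438490_at probe sets were listed on 6 of 6 liver and 0 of 6 lung arrays. These directions held under all 3 scalings, where Hamp ran from 7.46 to 8.04.

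Metallothioneins were higher in liver to a lesser degree, with larger estimates in the 0.1 Se arrays than in the 0 Se arrays. Mt1 was higher by 1.39 ± 0.22 (2.63-fold, adjusted p = 2.6e-05), by 0.85 ± 0.22 in the 0 Se arrays alone (adjusted p = 0.0049) and by 1.93 ± 0.30 in the 0.1 Se arrays alone (adjusted p = 0.00018). In order of group means, 0.1 Se liver (12.02) stood first, then 0 Se liver (11.79), 0 Se lung (10.94) and 0.1 Se lung (10.09), and the arrays of each neighbouring pair overlapped. Mt2 was higher by 0.76 ± 0.24 (1.70-fold, adjusted p = 0.0076). It was higher by 1.33 ± 0.32 in the 0.1 Se arrays alone (adjusted p = 0.0035), gave 0.20 ± 0.25 in the 0 Se arrays alone (adjusted p = 0.492), and lost the call under quantile normalization (0.49 ± 0.24, adjusted p = 0.071). The tests of the difference between these values are those of the diet effect between tissues given above. They did not pass for Mt1 or Mt2 (limma adjusted p = 0.76 for both), so a dependence on diet is not established.

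The transferrin receptor and 1 probe set of Slc11a2 were higher in lung. Tfrc was 2.51-fold higher in lung (-1.33 ± 0.14, liver minus lung, adjusted p = 4.0e-07), with no overlap between the 6 liver arrays (9.79 to 10.94) and the 6 lung arrays (11.36 to 11.90). Slc11a2 (1452078_a_at) was 1.63-fold higher in lung (-0.71 ± 0.11, adjusted p = 3.1e-05), by -1.11 ± 0.18 in the 0 Se arrays alone and by -0.30 ± 0.16 in the 0.1 Se arrays alone, where it did not pass (adjusted p = 0.114). Its second probe set did not pass (-0.14 ± 0.13, adjusted p = 0.362), and its sign turned after centring (0.06). Fth1 was higher in liver as deposited, by 0.64 ± 0.07 and 0.54 ± 0.07, but after quantile normalization its leading probe set gave -0.06 ± 0.05 (adjusted p = 0.278) and the other was lower in liver by -0.15 ± 0.05 (adjusted p = 0.0084), so no direction is given for ferritin heavy chain between tissues.

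The wider pathways around these genes were read from 13 lists, each gene by its leading probe set. In both diet comparisons 0 genes of any list passed the test, so the values below are descriptions. For zinc transporters and metallothionein regulation, 17 of 20 genes with a probe set were tested in liver and 17 in lung, with medians of -0.03 and -0.04. The zinc importer Slc39a10 had a difference of 0.58 ± 0.20 in liver (adjusted p = 0.644), and Slc30a1, the zinc exporter of the plasma membrane and a known Mtf1 target, one of -0.28 ± 0.11 (adjusted p = 0.704). In lung the zinc transporters with the smallest p were Slc30a4 (-0.27 ± 0.09, adjusted p = 0.505) and Slc39a7 (-0.18 ± 0.08, adjusted p = 0.654). Mt4, another metallothionein gene on the list, was blank on all liver and lung arrays.

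Iron import, reduction and heme iron gave 15 tested genes in liver (median 0.03) and 14 in lung (median 0.02). Steap4, a reductase of iron and copper, had a difference of 0.59 ± 0.15 in liver (adjusted p = 0.492), and Scara5, a ferritin receptor, one of 0.78 ± 0.26 (adjusted p = 0.64). In lung these were Hmox2, the constitutive heme oxygenase (0.31 ± 0.09, adjusted p = 0.39), and Flvcr2 (-0.36 ± 0.18, adjusted p = 0.699). Of the iron export, plasma carrier and binding genes, 5 were tested in each tissue, with a median of 0.18 in liver and -0.31 in lung. Lcn2, which binds siderophore iron and is an acute phase gene, had the largest of these differences, from 7.33 ± 0.51 (SD, n = 3) in 0 Se liver to 9.13 ± 1.06 (n = 3) in 0.1 Se liver, or 1.80 ± 0.45 (SE, adjusted p = 0.492) with no overlap. Ceruloplasmin (Cp), the plasma ferroxidase, had -0.46 ± 0.11 in lung (adjusted p = 0.242), and haptoglobin (Hp), which binds free hemoglobin, 0.19 ± 0.10 in liver (adjusted p = 0.808) and -0.39 ± 0.12 in lung (adjusted p = 0.406).

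Iron sensing, chaperones and ferritin turnover had 11 genes tested in liver (median -0.03) and 12 in lung (median 0.04). In liver the smallest p were those of the poly(C)-binding protein gene Pcbp4 (-0.67 ± 0.20, adjusted p = 0.594) and of Ireb2, which encodes the iron regulatory protein IRP2 (-0.30 ± 0.10, adjusted p = 0.64). In lung they were those of Ncoa4, the receptor that sends ferritin to lysosomes (0.20 ± 0.11, adjusted p = 0.73), and Pcbp4 (-0.29 ± 0.16, adjusted p = 0.755). The list of bone morphogenetic protein (BMP) and SMAD signalling, which is known to control hepcidin, had 18 genes tested in liver (median -0.04) and 15 in lung (median -0.05). Id2, a target of BMP signalling, gave -0.49 ± 0.16 in liver (adjusted p = 0.635) and the receptor gene Acvr1 -0.39 ± 0.14 (adjusted p = 0.664). In lung Bmp2 gave -0.65 ± 0.13 (adjusted p = 0.16) and Bmpr1a -0.16 ± 0.10 (adjusted p = 0.778). On the list of the interleukin 6 receptor and STAT3 pathway, 8 of 9 genes lay above 0 in liver (median 0.08). Il6ra stood at 0.85 ± 0.25 (adjusted p = 0.594) and Stat3 at 0.43 ± 0.15 (adjusted p = 0.64). Hamp in the same livers had 0.11 ± 0.12, and the part of this pathway in the Hamp values was not tested. In lung 6 of 9 lay above 0, with Jak1 at 0.20 ± 0.10 and Il6ra at 0.23 ± 0.17.

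Most glucocorticoid-inducible genes and macrophage markers had differences above 0. Both lists were chosen with earlier results of these data known, so their signs are no independent result. The share of all probe sets above 0 was not computed, and their medians were -0.0047 in liver and -0.0077 in lung. Of the glucocorticoid-inducible genes, 11 of 11 lay above 0 in liver (median 0.14) and 7 of 10 in lung (median 0.19). The array means of this list overlapped between the diets in both tissues. Zbtb16, a transcription factor gene of this list, had 1.67 ± 0.34 in liver (adjusted p = 0.416) and 1.63 ± 0.37 in lung (adjusted p = 0.227), Lpin1, a phosphatidate phosphatase, 0.89 ± 0.22 in liver (adjusted p = 0.492), and Fkbp5, a co-chaperone of the glucocorticoid receptor, 0.89 ± 0.22 in lung (adjusted p = 0.298). In lung, 3 of the 10 lay below 0, as did Mt1 and Mt2, and the part of glucocorticoids in the metallothionein values was not tested. Kupffer cell and macrophage markers, the cells that recycle iron from red cells through ferroportin, lay above 0 for 14 of 14 genes in liver (median 0.37) and 8 of 9 in lung (median 0.26). The mean over the 14 genes ran from 9.98 to 10.35 on 0 Se liver arrays and from 10.46 to 10.78 on 0.1 Se liver arrays, and Marco, a scavenger receptor, had 0.90 ± 0.20 (adjusted p = 0.441) and Clec4f, a Kupffer cell lectin, 0.39 ± 0.10 (adjusted p = 0.486). In lung the smallest p were those of the Fc receptor gene Fcgr1 (0.60 ± 0.19, adjusted p = 0.439) and the complement gene C1qa (0.21 ± 0.09, adjusted p = 0.654). The array means of a list did not overlap between the diets for 3 of the 10 lists with such means in liver. They were higher with 0.1 Se for macrophage markers and for iron export, plasma carriers and binding, and lower for iron sensing. In lung the means did not overlap for 3 of 12 lists. They were higher for the interleukin 6 receptor and STAT3 pathway, and lower for BMP-SMAD and for lung epithelial markers. No share over other gene sets was computed, so these counts have no background to be read against. The iron export mean in liver was taken over 5 genes, of which Lcn2 had 1.80 ± 0.45, while the list median was 0.18. Slc40a1 in the same livers had -0.10 ± 0.09, and the part of macrophages in the liver values of the iron genes was not tested. Hepatocyte markers lay above 0 for 11 of 13 in liver (median 0.10), led by Apoa2 (0.20 ± 0.11) and Alb (0.16 ± 0.11).

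Of the 6 erythroid markers with a probe set, 2 were tested in liver and 3 in lung. Alas2, the erythroid enzyme of heme synthesis, had 0.65 ± 0.12 in lung (adjusted p = 0.111), with no overlap between the diets. Hbb-b2 gave -0.19 ± 0.24 there and 0.19 ± 0.30 in liver, where Klf1 gave -0.06 ± 0.36. The smallest p on the lung epithelial list were those of Foxj1, the regulator of ciliated cells (-0.997 ± 0.29, adjusted p = 0.403), and Scgb3a2, a secretory protein of the airway (-0.43 ± 0.15, adjusted p = 0.519). On the cardiac list they were those of the sarcomere genes Actc1 (-0.89 ± 0.51, adjusted p = 0.761) and Tnni3 (-0.75 ± 0.73, adjusted p = 0.871), and the hepatocyte gene tested in lung, Cyp2e1, gave -0.85 ± 0.41 (adjusted p = 0.688).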

How the data were processed

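The deposited values are log2 signals (6.64 to 16.4), which the authors had obtained by MAS5 with a scaling of each array on its own and without absent calls. R 2.15.2 and affy 1.36.0 are listed among the tools of the submitters' processing notes, with no role given. Blanks were kept missing, and an absent call cannot be told there from a low signal. Of 29467 probe sets, 58 controls were left out, and 0 columns lacked a sample. Gene names came from the array annotation and RefSeq. The members, lists and tests were chosen with earlier results of these data known. The members were all probe sets of a single member gene, and the leading probe set of a gene was the one with the highest mean. From each list, up to 4 genes past the test were named, or the 2 with the smallest p where none passed, and for likeness the 5 genes with the highest correlation to Mt1. Probe sets with at least 2 values per group were tested with limma 3.58.1 (R 4.3.3, lmFit and eBayes with a trend), with Benjamini-Hochberg adjustment over all probe sets tested and a threshold of 0.05. The script was tested on simulated data. Alternatives changed the filter, the scaling, the pseudocount, the trend, the replicate block, the arrays in the fit or the test. Diets were compared within a tissue on 6 arrays, and tissues and the interaction on 12. Differences are given with SE, group means with SD. Correlations and motif counts were computed in Python 3.11. The number of arrays limits the precision.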

Additional observations from a re-analysis of the deposited data

How the results depend on the processing

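The limits are those of 3 arrays per group, of dim probe sets near the lowest value of the table (Slc11a2, and Hamp and Slc40a1 in lung), and of blanks that may be absent calls or low signals. The number of member probe sets past the test stayed at 0 in both diet comparisons under each filter, scaling and fit, with these exceptions. At 1.5-fold and its unadjusted threshold, the methods' t-test gave 1 in liver, against 136 of 16575 over all probe sets. Leaving out 1 array gave 0 to 1 in lung, the 1 being Mt1 without replicate 1 of 0.1 Se lung. Of 776 alternative values for the member probe sets, 751 kept their direction and side of the threshold, 21 turned sign, 3 lost the call and 1 gained it.

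Most sign turns were of values near 0. After quantile normalization, liver gave -0.048 for Hamp 1419197_x_at and -0.011 for Fth1 1448771_a_at, lung 0.0039 for Fth1 1448771_a_at, and the difference between tissues 0.015 for the same probe set. That setting also turned the liver against lung values of Fth1 to -0.063 and -0.15, and median centring that of Slc11a2 1417584_at to 0.062. With blanks at the lowest value, the difference between tissues for Slc11a2 1417584_at was 0.013. Leaving out single arrays gave ranges in liver of -0.069 to 0.38 for Mt1, -0.060 to 0.16 for Hamp 1419197_x_at, -0.15 to 0.016 for Slc40a1 1448566_at and -0.00025 to 0.13 for Fth1 1448771_a_at. In lung these were -0.18 to 0.094 for Tfrc, -0.084 to 0.19 for Slc40a1 1417061_at and -0.052 to 0.020 for Slc39a14, and for the difference between tissues -0.15 to 0.035 for Slc11a2 1417584_at. The cause was not tested.

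Over all probe sets, the 2 calls in liver became 8 with no filter, 1 with values on every array, 13 with the 12 arrays in 1 fit, 0 without the trend or with the t-test after adjustment, 136 with the t-test and 1.5-fold change, and 0 to 9 with 1 array left out. The 20 calls in lung became 4 with no filter, 10 after quantile normalization, 0 without the trend or with the t-test after adjustment, 179 with the t-test and 1.5-fold change, and 0 to 75 with 1 array left out. The 0 calls of the difference between tissues became 44 with no filter and 0 to 3 with 1 array left out, and the 12326 of liver against lung became 19731 with no filter. With the replicate number as a block, 0 member probe sets passed in liver and 0 in lung, and over all probe sets 0 and 54. The same block gave 10 member probe sets for liver against lung and 0 for the difference between tissues. Over all probe sets these were 12303 and 0. Arrays of the same number in both diets correlated at -0.19, -0.03 and -0.01 in liver and 0.15, -0.17 and -0.02 in lung (deviations from group means), so the numbers were not taken as pairs of the diets. Between liver and lung, same-numbered arrays correlated at 0.11, 0.06 and 0.11 with 0 Se, where the 6 pairs of unlike number ran from -0.09 to -0.01, and at -0.0043, 0.02 and -0.04 with 0.1 Se. With 0.1 Se the pairs of unlike number ran from -0.03 to 0.04. Deviations from a group mean sum to 0, so the values of like and unlike number are not independent. The 0 Se values are at most a hint of shared mice. The authors describe the liver and lung arrays as from 3 mice per diet, without stating that both tissues came from the same mice. The main tests of liver against lung and of the difference between tissues took the 12 arrays as independent. Any sharing of mice is therefore left out of their SE and p.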
